A study of Mus musculus with 18 samples.

Results

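The genes described here encode the 3 TGF-beta ligands (Tgfb1, Tgfb2 and Tgfb3), the 3 receptors that bind them (Tgfbr1, Tgfbr2 and Tgfbr3) and the 4 latent TGF-beta binding proteins (Ltbp1, Ltbp2, Ltbp3 and Ltbp4). They were chosen by symbol, and all 10 were present among the 51435 genes of the deposited tables. RNA-seq libraries of polyadenylated transcripts were made from 18 left ventricles, 9 of WT and 9 of WWP2Mut/Mut mice. WWP2 is a HECT-type E3 ubiquitin ligase, and the mutant line, made with CRISPR/Cas9 on the C57BL/6J background, carries a frame-shift deletion in an early coding exon of Wwp2. The deletion was designed to remove the full-length and N-terminal isoforms (WWP2-FL and WWP2-N) and to leave the C-terminal isoform (WWP2-C), so the mutants are not expected to lack every form of WWP2. Homozygous mutants were compared with WT littermates. All 18 mice received angiotensin II (AngII), a peptide that raises blood pressure and drives cardiac fibrosis, at 500 ng/kg/min for 28 days from a pump implanted at 8 weeks of age. No mouse without AngII was part of the comparison, so the values describe the infused heart and not the response to infusion.

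TGF-beta is secreted in a latent form. Each ligand stays bound to its own propeptide, and that complex is linked to an LTBP that anchors it in fibrillin and fibronectin fibres of the extracellular matrix until integrins, proteases or thrombospondin release it. The free ligand binds TGFBR2, which recruits and phosphorylates TGFBR1, and TGFBR1 then phosphorylates SMAD2 and SMAD3. TGFBR3, also called betaglycan, is a co-receptor that presents the ligands and in particular TGF-beta 2. In the heart the pathway is known for turning fibroblasts into matrix-producing cells.

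Wwp2 itself was lower in every mutant than in any WT mouse. It ranged from 3.83 to 6.01 TPM (a unit that corrects for transcript length and library size, median 5.10) in WT and from 1.19 to 3.00 TPM (median 1.58) in WWP2Mut/Mut, with a log2 fold change of -1.40 ± 0.157 (SE, edgeR, adjusted p = 0.00113). With fewer mice the difference in Wwp2 was of similar size but did not pass after adjustment over all genes. It was -1.26 ± 0.199 (SE, edgeR, adjusted p = 0.205) without the 5 mice with atrial transcripts described next, and -1.42 ± 0.265 (SE, edgeR, adjusted p = 0.977) without the 5 with most liver transcripts. In the latter fit 1 other gene passed, Pgk1-rs7, which is named here after its value was seen and is a copy related to Pgk1, so its counts are uncertain. Library totals ran from 24566994 to 37451087 expected counts, with a median of 31168997. The deposited TPM of a library summed to between 671770 and 826381 and not to a common total. TPM levels of different mice are therefore not on exactly the same scale. All 8 cardiomyocyte markers and all 8 fibroblast markers were above 1 TPM in every mouse. The atrial gene Myl7 was above 40 TPM in 5 mice (3 WT and 2 mutants, 48.7 to 338 TPM) and at most 7.14 TPM in the others. The liver gene Alb was above 20 TPM in 5 mice, all of them WT (22.5 to 113 TPM), and at most 18.01 TPM in the rest. RNA concentration, a covariate of the genotype test, was not balanced between the genotypes, with a median of 98.3 ng/µl (1.68 to 163.1) in WT and 187.4 ng/µl (89.3 to 320.9) in WWP2Mut/Mut. The library at 1.68 ng/µl is that of WT mouse 43-3, one of the mice with atrial transcripts. The genotype values without the atrial or the liver mice are given below where they lost a call, changed sign or moved by more than 1.5 times.

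The genes lie on 8 chromosomes of the GRCm38 build (GENCODE M21 annotation). Tgfb1 (ENSMUSG00000002603) is at chr7:25687002-25705077 on the plus strand, Tgfb2 (ENSMUSG00000039239) at chr1:186622792-186705989 on the minus strand and Ltbp2 (ENSMUSG00000002020) at chr12:84783212-84876532 on the minus strand. Tgfb3 is on the same chromosome as Ltbp2, at chr12:86056745-86079041, and Ltbp4 on that of Tgfb1, at chr7:27305136-27337692. The deposited values are per gene, so they compare the 3 ligand genes but do not separate transcripts of a gene.

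The promoters of 3 genes are shown because Tgfb2 and Ltbp2 varied together between mice (r = 0.81) while Tgfb1 had an r of 0.28 and 0.032 with them. Each is the RefSeq sequence of GRCm38.p6 from 250 bases before to 50 bases after the start, on the gene's own strand, and 8 of the 10 symbols had such a sequence. Capitals mark matches on either strand to the SMAD-binding core CAGAC, the GC box GGGCGG, the TATA box TATAAA, the E-box CACGTG, the cyclic AMP element TGACGTCA or the AP-1 site TGACTCA.
Tgfb1 (chr7:25686752-25687051, plus strand): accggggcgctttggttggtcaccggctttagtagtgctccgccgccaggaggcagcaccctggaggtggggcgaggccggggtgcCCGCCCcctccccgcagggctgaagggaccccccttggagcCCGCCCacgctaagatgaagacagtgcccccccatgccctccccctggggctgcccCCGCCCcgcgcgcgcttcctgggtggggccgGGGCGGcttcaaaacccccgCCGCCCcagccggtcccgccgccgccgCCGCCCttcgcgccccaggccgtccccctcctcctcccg
Tgfb2 (chr1:186705940-186706239, minus strand): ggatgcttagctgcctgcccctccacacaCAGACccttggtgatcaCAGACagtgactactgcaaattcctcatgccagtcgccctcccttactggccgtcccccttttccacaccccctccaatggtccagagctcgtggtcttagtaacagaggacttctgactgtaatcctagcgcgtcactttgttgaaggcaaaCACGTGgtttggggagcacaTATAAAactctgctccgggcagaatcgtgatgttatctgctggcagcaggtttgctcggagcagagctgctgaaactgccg
Ltbp2 (chr12:84876442-84876741, minus strand): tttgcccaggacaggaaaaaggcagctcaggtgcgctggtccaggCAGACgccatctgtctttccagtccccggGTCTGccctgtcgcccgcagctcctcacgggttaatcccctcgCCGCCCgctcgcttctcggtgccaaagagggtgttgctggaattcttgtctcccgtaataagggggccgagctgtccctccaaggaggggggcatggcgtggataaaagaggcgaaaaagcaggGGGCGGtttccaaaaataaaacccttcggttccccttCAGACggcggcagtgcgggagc
The Tgfb1 window is GC-rich (77.0%) with 6 GC boxes and none of the other motifs. The Tgfb2 window (54.3% GC) holds 2 SMAD cores, 1 TATA box and 1 E-box and no GC box, and the Ltbp2 window (61.0% GC) holds 3 SMAD cores and 2 GC boxes. The SMAD core is short and was present in 49.6% of all 32851 promoter windows, the GC box in 35.7%, the TATA box in 13.6%, the E-box in 7.15%, the AP-1 site in 5.20% and the cyclic AMP element in 1.79%. These matches describe the letters of the windows and do not show binding.

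Among the ligands, Tgfb1 was the most abundant and Tgfb2 the least in every mouse. Over the 18 mice Tgfb1 averaged 9.05 ± 1.46 TPM, Tgfb3 4.84 ± 0.888 TPM and Tgfb2 1.31 ± 0.479 TPM (SD, n = 18). As shares of the summed ligand TPM within a mouse, Tgfb1 made up 52.02% to 66.1%, Tgfb3 27.0% to 38.1% and Tgfb2 5.56% to 13.9%. The 3 ranges did not overlap.

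Among the receptors, Tgfbr2, which encodes the ligand-binding type II kinase, led with 50.9% ± 5.68 of the receptor TPM (SD, n = 18). Tgfbr3 followed with 31.6% ± 4.12 and Tgfbr1, the type I kinase, had 17.5% ± 2.37. The level of Tgfbr2 spread widely on TPM, from 2.25 to 10.9 TPM, with a coefficient of variation of 45.8%. On the log2 CPM scale (counts scaled to library size) it ran from 5.03 to 6.13, a narrower spread than on TPM.

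Ltbp4 stood apart from the other LTBPs. It averaged 105 ± 26.8 TPM and was the highest of the 10 genes in 18 of 18 mice, taking 83.2% to 91.8% of the LTBP total. Ltbp1 (5.73 ± 0.912 TPM) and Ltbp3 (5.64 ± 1.302 TPM) were alike in level, with Ltbp1 above Ltbp3 in 12 of 18 mice. Ltbp2, a family member that binds fibrillin but is not known to carry latent TGF-beta as the others do, was the lowest and the most variable, at 1.71 ± 1.09 TPM with a coefficient of variation of 63.9% and a 6.48-fold range.

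By mean TPM the order was Ltbp4, Tgfb1, Tgfbr2, Ltbp1, Ltbp3, Tgfb3, Tgfbr3, Tgfbr1, Ltbp2 and Tgfb2. Some neighbours in it were not separated: Tgfbr2 exceeded Ltbp1 in 9 of 18 mice, Tgfbr1 exceeded Ltbp2 in 11 and Ltbp2 exceeded Tgfb2 in 12. Tgfb1 was above Tgfbr2 in 15 mice, Ltbp3 above Tgfb3 in 17, Tgfb3 above Tgfbr3 in 16 and Tgfbr3 above Tgfbr1 in all 18.

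**Figure D1:**
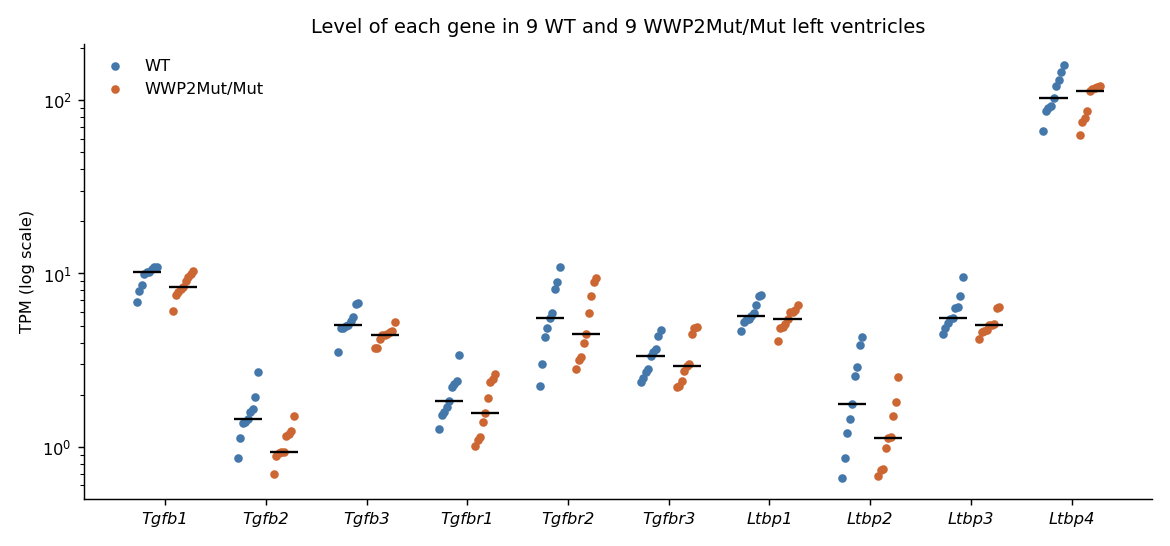
TPM of the 10 genes on a log axis, one point per mouse, with WT in blue and WWP2Mut/Mut in orange and black bars at the group medians. Ltbp4 lies above all other genes, and the groups overlap for every gene.

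The comparison of genotypes addressed whether loss of WWP2-FL and WWP2-N, forms of a ligase the study places in cardiac fibrosis, altered these transcripts under AngII. None of the 10 passed an adjusted p of 0.05 in edgeR, where 1 of 24804 genes did (Wwp2; 0.00403%), or in DESeq2, which called 1 gene as well. At an unadjusted p below 0.05, Tgfb2 and Ltbp2 were the 2 members in edgeR, both lower in WWP2Mut/Mut, against 2.57% of all genes tested that were lower at that threshold and 3.66% that were past it in either direction. In edgeR 9 of the 10 had a negative log2 fold change, against 51.9% of all genes, with a median of -0.10 over the 10 genes and -0.0099 over all genes. On the deposited TPM more genes were lower in WWP2Mut/Mut. With log2(TPM + 0.1) 18244 of 24804 genes were negative in limma, with a median of -0.11. After rescaling TPM to a common sum per library 18417 were negative. The TPM ranges, counts of mice and lane differences below are read against that shift.

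Tgfb2 ranged from 0.86 to 2.72 TPM (median 1.44) in WT and from 0.70 to 1.5 TPM (median 0.94) in WWP2Mut/Mut. The groups overlapped, with 4 WT mice above every mutant and 1 mutant below every WT mouse. Its log2 fold change was -0.41 ± 0.140 (SE, edgeR, unadjusted p = 0.00909, adjusted p = 0.965). The difference in mean log2 TPM had the same sign in each of the 4 sequencing lanes, from -0.21 to -1.12 with 2 or 3 mice of a genotype in a lane. The largest, in lane 3, rests on the 2 WT mice of that lane, mouse 43-3 and another, both among the mice with atrial transcripts, which had the highest Tgfb2 of all (2.72 and 1.94 TPM) and 2 of the 3 highest matrix scores described below (6.52 and 6.35). Mouse 43-3 also had the lowest coverage fraction of all. The edgeR log2 fold change of Tgfb2 was -0.40 (unadjusted p = 0.0104) without mouse 43-3 and -0.41 (unadjusted p = 0.0150) without the other mouse. Without the 5 mice with atrial transcripts it was -0.32 (unadjusted p = 0.0917 in edgeR, adjusted p = 1.0).

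Ltbp2 ranged from 0.66 to 4.28 TPM (median 1.76) in WT and from 0.68 to 2.53 TPM (median 1.13) in WWP2Mut/Mut. Here 4 WT mice were above every mutant, but the lowest mouse of all was also WT. The log2 fold change was -0.57 ± 0.238 (SE, edgeR, unadjusted p = 0.0276, adjusted p = 1.0), and it was negative in all 4 lanes, from -0.30 to -1.32. Without the 5 mice with atrial transcripts it was -0.22 (unadjusted p = 0.428 in edgeR). The unadjusted p also rose above 0.05 without WT mouse 45-1 (0.0816), WT mouse 45-3 (0.0672) or mutant mouse 53-1 (0.109), and it was 0.0856 to 0.0940 on the 3 TPM scales (limma). In bulk tissue, fewer cells of a type and less RNA per cell cannot be told apart.

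The remaining ligands did not pass for genotype and their groups overlapped, although 3 WT mice were above every mutant for Tgfb1 and 4 for Tgfb3, as many as for Tgfb2. For Tgfb3 the lowest mouse was also WT. Tgfb1 ranged from 6.82 to 10.9 TPM (median 10.2) in WT and from 6.05 to 10.4 TPM (median 8.36) in WWP2Mut/Mut, with a log2 fold change of 0.020 ± 0.145 (SE, edgeR, adjusted p = 1.0) whose sign turned on the TPM scale and with the coverage fraction described below as a covariate. Most genes had negative values on the TPM scale, as given above, so a negative value there is not particular to Tgfb1. Tgfb3 ranged from 3.51 to 6.78 TPM (median 5.06) in WT and from 3.70 to 5.25 TPM (median 4.43) in mutants, with a log2 fold change of -0.091 ± 0.0968 (SE, edgeR, adjusted p = 1.0). The 95% interval was -0.26 to 0.30 for Tgfb1 and -0.28 to 0.10 for Tgfb3.

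Nor did the receptors pass, with 0 or 1 WT mouse above every mutant. Below every WT mouse were 3 mutants for Tgfbr1 and 2 for Tgfbr3, and for Tgfbr3 another 2 mutants were above every WT mouse. Tgfbr1 ranged from 1.27 to 3.41 TPM (median 1.85) in WT and from 1.01 to 2.62 TPM (median 1.57) in WWP2Mut/Mut. Tgfbr2 ranged from 2.25 to 10.9 TPM (median 5.57) in WT and from 2.83 to 9.46 TPM (median 4.45) in mutants, and Tgfbr3 from 2.38 to 4.75 TPM (median 3.35) and from 2.21 to 4.94 TPM (median 2.91). The edgeR log2 fold changes were -0.16 ± 0.164 for Tgfbr1, -0.053 ± 0.144 for Tgfbr2 and -0.031 ± 0.139 for Tgfbr3 (SE). Without RNA concentration as a covariate, those of Tgfbr2 and Tgfbr3 changed sign and those of Tgfbr1 and, among the LTBPs, Ltbp4 became smaller (-0.059 and -0.076). The part of RNA concentration in these values was not tested.

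Ltbp1 ranged from 4.68 to 7.53 TPM (median 5.71) in WT and from 4.07 to 6.62 TPM (median 5.46) in WWP2Mut/Mut, Ltbp3 from 4.49 to 9.58 TPM (median 5.55) and from 4.19 to 6.44 TPM (median 5.05), and Ltbp4 from 66.3 to 160 TPM (median 103) and from 63.1 to 120 TPM (median 113). Their edgeR log2 fold changes were -0.044 ± 0.125 (positive without covariates), -0.11 ± 0.145 and -0.19 ± 0.150 (SE). Above every mutant were 2 WT mice for Ltbp1, 2 for Ltbp3 and 3 for Ltbp4. None of the 3 genes had an unadjusted p below 0.05.

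The values of these genes moved with the mice and covariates included. Without the 5 liver mice, which left 4 WT against 9 mutants, the edgeR log2 fold changes were -0.46 for Tgfbr1, -0.20 for Tgfbr2, -0.25 for Tgfbr3, -0.24 for Ltbp1 and 0.22 for Tgfb1 (adjusted p = 0.977 for each), all larger in size than with all mice. Tgfb2 (-0.50) and Ltbp2 (-0.76) were the 2 members with an unadjusted p below 0.05 in that fit, against 2.65% of all genes. Without the 5 atrial mice Ltbp4 was -0.031, Tgfb1 0.056 and Tgfbr3 -0.055, and Ltbp1 (0.019), Tgfb3 (0.031) and Ltbp3 (0.068) were positive. The members with an unadjusted p below 0.05 numbered 3 with the level of the liver markers as a further covariate (Tgfbr1 joined at -0.35, against 6.62% of all genes) and 3 with the coverage fraction (Ltbp4 joined at -0.26, against 5.37% of all genes). All of these were lower in WWP2Mut/Mut, and none passed the adjusted threshold.

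**Figure D2:**
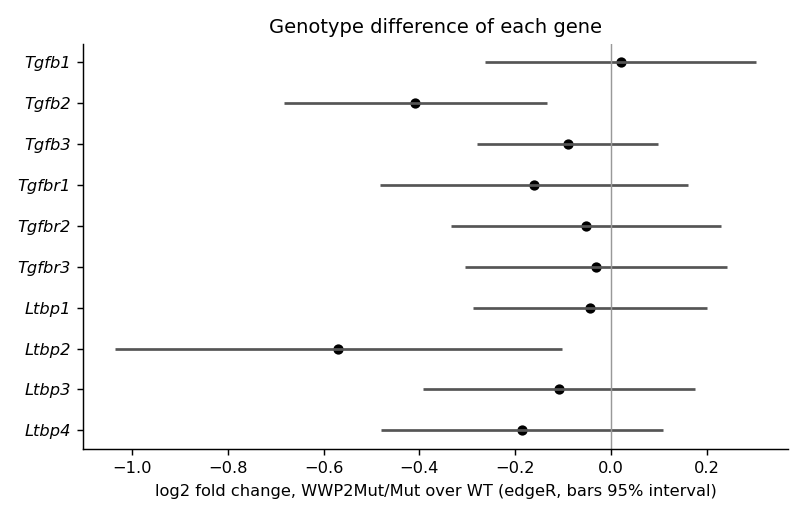
Log2 fold change of WWP2Mut/Mut over WT for the 10 genes in edgeR, with points at the estimate and bars at a 95% interval from the normal distribution. The intervals of Tgfb2 (-0.68 to -0.13) and Ltbp2 (-1.03 to -0.10) lie below 0, and the other 8 span it.

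The balance of the ligands within a mouse was compared as a log2 ratio of TPM, which needs no library scaling. The ratio of Tgfb2 to Tgfb1 had a median of 0.141 in WT and 0.114 in WWP2Mut/Mut (ranges 0.126 to 0.267 and 0.0859 to 0.190), a log2 difference of -0.37 ± 0.188 (SE, n = 9 per group, 2-sided exact permutation test, p = 0.0673). The ratio of Tgfb2 to Tgfb3 differed by -0.28 ± 0.135 (exact permutation test, p = 0.0535). Adjusted over the 5 ratios compared, both p were 0.168 (exact permutation test).

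With expected counts in place of TPM the same log2 differences were -0.40 (exact permutation test, p = 0.00995) and -0.29 (exact permutation test, p = 0.0165), and both p were 0.0413 adjusted over the 5 ratios (exact permutation test). With 1 added to each TPM they were -0.16 (exact permutation test, p = 0.224) and -0.092 (exact permutation test, p = 0.251). The call on the Tgfb2 balance therefore depended on the unit, and the pseudocount made the difference smaller without changing the call on TPM. Within lanes, the ratio of Tgfb2 to Tgfb1 differed by 0.053, -0.36, -1.02 and -0.14 in lanes 1 to 4. The ratio of Tgfb3 to Tgfb1 differed by -0.089 (p = 0.422), that of Tgfbr1 to Tgfbr2 by -0.15 (p = 0.351) and that of Tgfbr3 to Tgfbr2 by 0.059 (p = 0.732) in the same exact permutation test.

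Much of the variation between mice ran along the gene body coverage fraction that the authors deposited for each library, 0.0288 to 0.0540. Its column is headed genebody_bottomhalf, and the deposited table does not define it further. It did not separate the genotypes (mean 0.0387 ± 0.00861 in WT and 0.0401 ± 0.00825 in WWP2Mut/Mut, SD, n = 9 each, exact permutation test, p = 0.720). This association was examined after the data had been seen. With genotype, lane and RNA concentration in the limma fit, 7 of the 10 genes passed an adjusted p of 0.05, 3 rising with the fraction (25.2% of 12913 genes did) and 4 falling (31.1% of genes did). Most genes were called in this fit, so the members' count is read against those shares.

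The 3 receptors and Ltbp1 fell as the fraction rose, with limma slopes per SD of the fraction of -0.26 ± 0.0490 for Tgfbr1, -0.23 ± 0.0419 for Tgfbr2, -0.20 ± 0.0454 for Tgfbr3 and -0.19 ± 0.0375 for Ltbp1 on the log2 CPM scale (counts scaled to library size) (SE, adjusted p 0.000251 to 0.00139). Tgfb1, Ltbp3 and Ltbp4 rose, by 0.22 ± 0.0517, 0.18 ± 0.0588 and 0.19 ± 0.0592 (limma, adjusted p 0.00187 to 0.0152). Without mutant mouse 1-2 the slope of Ltbp4 was 0.17 (limma, adjusted p = 0.0626), and without the 5 mice with atrial transcripts 0.18 (adjusted p = 0.0654). Tgfb2, Tgfb3 and Ltbp2 had slopes of 0.061 ± 0.0657, 0.060 ± 0.0409 and 0.012 ± 0.127 and did not pass. The unit mattered here. With log2(TPM + 1) the median slope of all genes moved from -0.012 to -0.11, Tgfb1 (0.048, limma, adjusted p = 0.455) Ltbp3 (0.0098, adjusted p = 0.917) and Ltbp1 (-0.11, adjusted p = 0.0853) no longer passed, and Tgfb2 passed as a fall (-0.14, adjusted p = 0.0274), while the 3 receptors kept their direction and call. The size of their slopes moved. Over 4 alternatives the slope was -0.55 to -0.22 for Tgfbr2, -0.29 to -0.19 for Tgfbr1 and -0.29 to -0.16 for Tgfbr3.

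**Figure D3:**
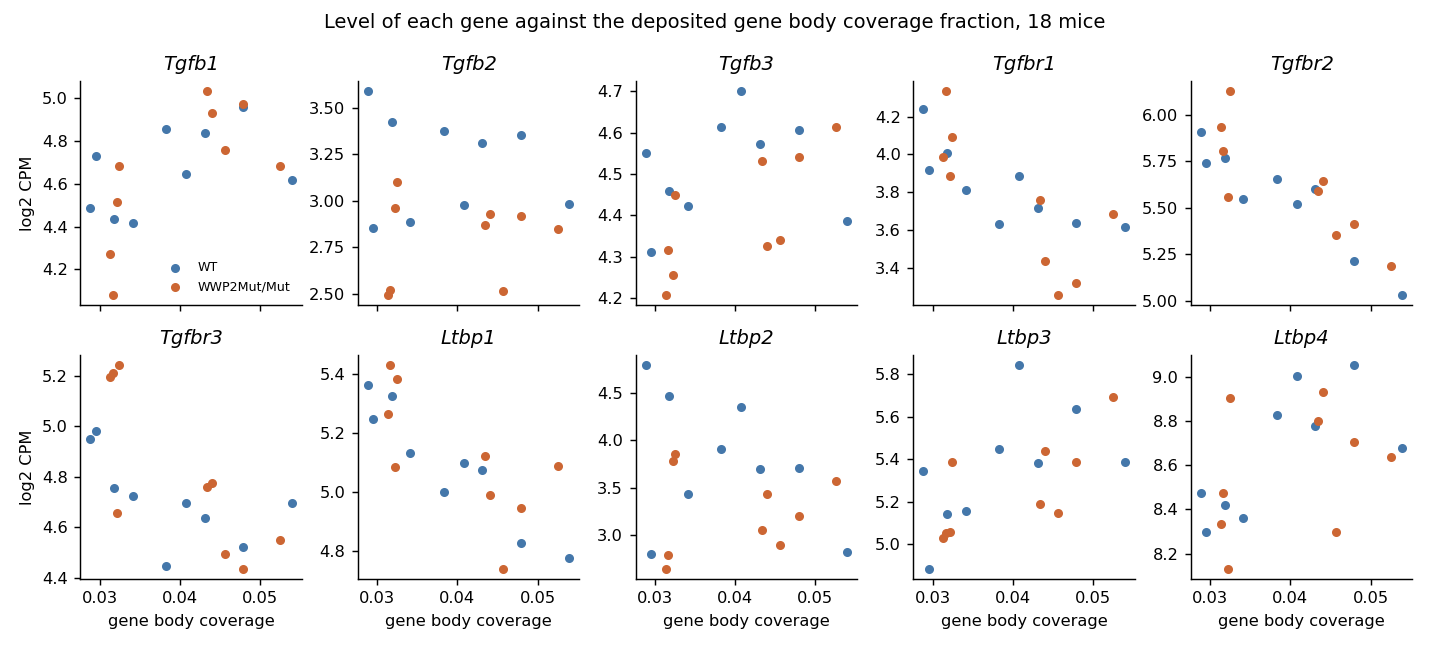
Log2 CPM of each gene against the gene body coverage fraction, one point per mouse, WT in blue and WWP2Mut/Mut in orange. Tgfbr1, Tgfbr2, Tgfbr3 and Ltbp1 fall from left to right, Tgfb1 and Ltbp3 rise, and Tgfb2 and Ltbp2 have limma slopes of 0.061 and 0.012 per SD.

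The pairs of genes showed this division only in part. Of 45 pairs, 16 had a permutation p below 0.05 after Benjamini-Hochberg adjustment over the pairs, 13 positive and 3 negative. How often pairs drawn from all genes would pass was not tested, so the count is not read as particular to these genes. At an adjusted p below 0.05 in limma, 25.2% of 12913 genes rose with the coverage fraction and 31.1% fell. The receptors and Ltbp1 were positively related, from Pearson r = 0.66 for Tgfbr1 and Tgfbr2 to r = 0.89 for Tgfbr1 and Ltbp1 (Spearman rho = 0.94, permutation p = 1e-05 for both, the smallest that 100000 permutations can give, and r = 0.83 without the 2 mice farthest from the median). Tgfb1 was inversely related to Tgfbr1, with r = -0.72 (permutation p = 0.00075) and rho = -0.69 (permutation p = 0.00176), and r = -0.61 without the 2 farthest mice. Ltbp3 and Ltbp4, which also rose with the fraction, had r of -0.44 to -0.17 with the receptors and Ltbp1, and none of these pairs passed. The coverage fraction moved with each of these genes, and its part in their correlation was not tested.

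Tgfb2 and Ltbp2, which did not pass for the coverage fraction on the log2 CPM scale, followed each other. Their r was 0.81 and rho 0.82 (permutation p = 7e-05 for both), with r = 0.70 without the 2 farthest mice, 0.72 within the 9 WT and 0.89 within the 9 mutants. Lanes hold too few mice for a correlation of their own. Tgfb3 was most closely related to Ltbp3, with r = 0.80 (permutation p = 6e-05) and rho = 0.79 (permutation p = 0.00014), and r = 0.72 without the 2 farthest mice. Ltbp3 and Ltbp4 had r = 0.79 (permutation p = 0.00014), and Tgfb3 and Ltbp4 r = 0.67 (permutation p = 0.00269). The relation of Tgfb3 to Tgfb2 and to Ltbp2 was weaker, with r = 0.59 for each (permutation p = 0.0102 and 0.0114), and that to Ltbp2 was 0.44 without the 2 farthest mice.

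**Figure D4:**
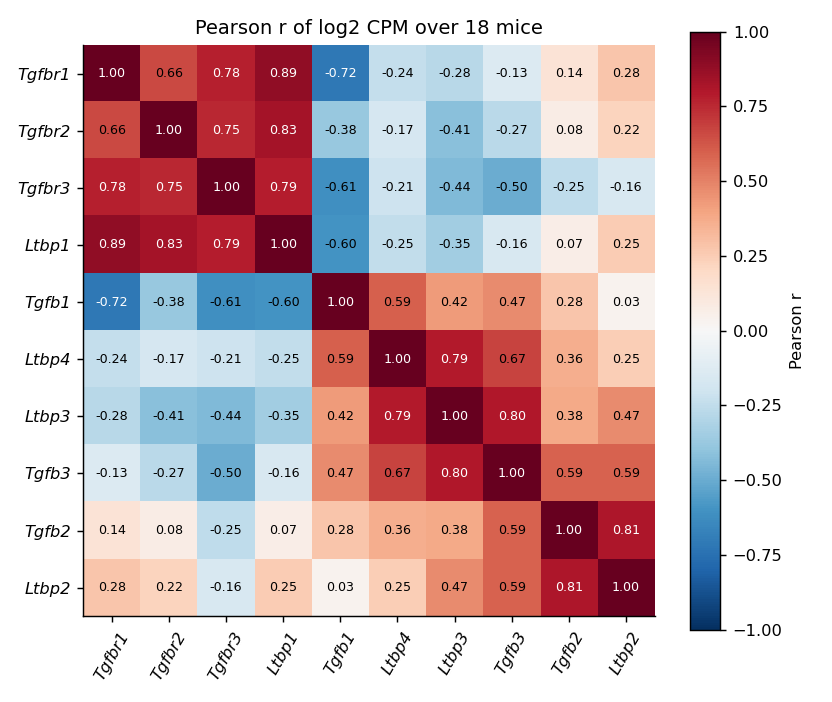
Pearson r of log2 CPM over the 18 mice for each pair of the 10 genes, red positive and blue negative. The receptors with Ltbp1 form one block (0.66 to 0.89), Tgfb2 and Ltbp2 are paired at 0.81, and Tgfb1 is negative to the receptors and Ltbp1 (-0.38 to -0.72). Pairs drawn from all genes were not tested.

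Covariation with the matrix was measured against a score, the mean log2 CPM of 20 genes such as Col1a1, Col3a1, Fn1 and Postn that holds none of the 10 members. The score did not separate the genotypes (6.07 ± 0.314 in WT and 6.00 ± 0.244 in WWP2Mut/Mut, SD, n = 9 each, exact permutation test, p = 0.583). In limma with genotype, lane and RNA concentration, 0.0774% of 12913 genes passed an adjusted p of 0.05 and none of the 10 members did. At an unadjusted p below 0.05, 3 of the 10 were positive (Ltbp2, Tgfb2 and Tgfb3), against 3.86% of all genes, and the slopes of all 10 were positive (that of Tgfbr3, 0.042, turned negative in other settings), with a median of 0.38 over the 10 and 0.019 over all genes.

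Ltbp2 rose by 1.41 ± 0.323 log2 CPM per unit of the score (SE, limma, unadjusted p = 0.000604, adjusted p = 0.269) and Tgfb2 by 0.68 ± 0.194 (limma, unadjusted p = 0.00325, adjusted p = 0.525). Ltbp2 passed with genotype as the only covariate (limma, adjusted p = 0.0165), and Tgfb2 on the log2(TPM + 1) scale (limma, adjusted p = 0.0430), where the median slope of all genes was 0.32. As correlations, Ltbp2 had r = 0.79 (permutation p = 0.00012) and rho = 0.80 (permutation p = 0.0002), with r = 0.72 without the 2 farthest mice. Tgfb2 had r = 0.69 (permutation p = 0.00158) and rho = 0.65 (permutation p = 0.00414), with r = 0.76 without them. Both relations held within each genotype, with r = 0.83 in WT and 0.80 in mutants for Ltbp2 and r = 0.73 and 0.90 for Tgfb2.

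Tgfb1 had no such relation on the log2 CPM scale when coverage was left aside (r = 0.17, permutation p = 0.498, rho = 0.12, permutation p = 0.621). With gene and score on the log2(TPM + 1) scale its r was 0.62 (permutation p = 0.00556), so the contrast with Tgfb2 and Ltbp2 (r = 0.82 for both) depended on the unit. The contrast also depended on whether the coverage fraction was in the fit, as given below. Most other members also rose on that scale, with r = 0.85 for Tgfb3, 0.76 for Ltbp1, 0.67 for Ltbp3, 0.66 for Tgfbr2, 0.65 for Tgfbr1 and 0.51 for Tgfbr3, while Ltbp4 had 0.16. There 28.1% of all 12913 genes had a positive slope at an unadjusted p below 0.05 in limma. On log2 CPM Tgfbr2 had r = 0.54 (permutation p = 0.0195) and rho = 0.42 (permutation p = 0.0851), and r = 0.28 without the 2 farthest mice. These mice, 16-1 and 43-3, also had the highest and lowest coverage fraction, whose part was not tested. The r of Tgfbr2 was 0.85 in WT and 0.25 in mutants, and the difference in slope between genotypes did not pass (-1.305 ± 0.457, limma, adjusted p = 0.184). Ltbp1 had r = 0.51 (permutation p = 0.0314), 0.27 without the same mice, 0.73 in WT and 0.29 in mutants. Ltbp4 had r = -0.12 in WT and 0.67 in mutants. In that test of slopes 0 of 12913 genes passed in limma and 3040 had an unadjusted p below 0.05. With the coverage fraction in the fit, also on log2 CPM, 8 of the 10 members had a positive slope at an unadjusted p below 0.05 (limma), against 7.64% of all genes. Tgfb1 was among the 8, as were Tgfb2 and Ltbp2, while Tgfbr1 and Tgfbr3 were not.

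**Figure D5:**
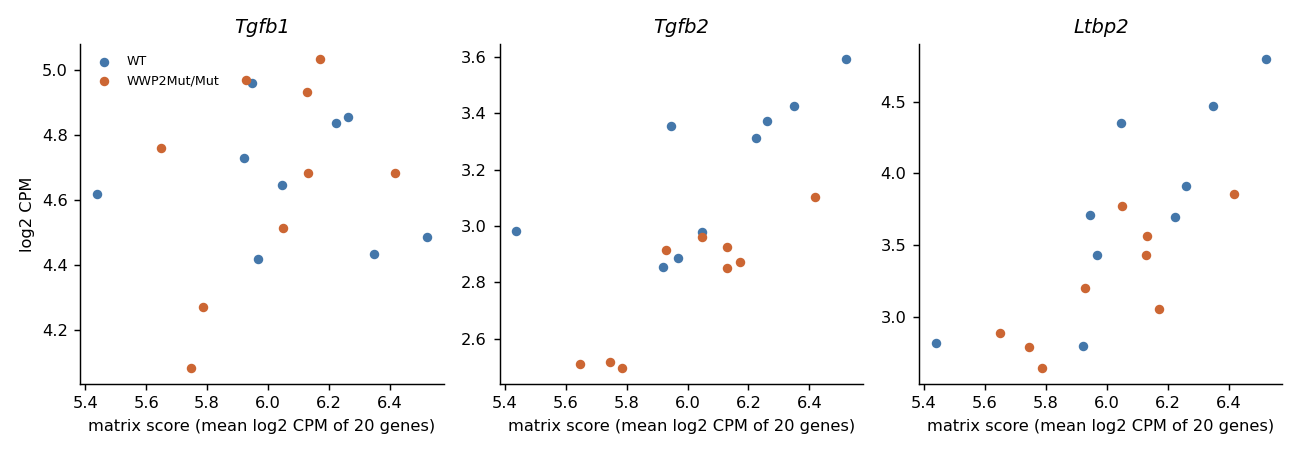
Log2 CPM of Tgfb1, Tgfb2 and Ltbp2 against the matrix score, one point per mouse, WT in blue and WWP2Mut/Mut in orange. On this scale Tgfb2 and Ltbp2 rise with the score (r = 0.69 and 0.79) and Tgfb1 has r = 0.17, which was 0.62 with log2(TPM + 1).

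The genes most like each member, by Pearson r over the 18 mice among 12913 genes, differed between the groups of members. Tgfb2 was closest to Ccn1 (r = 0.85), a secreted matricellular protein, and also followed Calhm5 (0.84). Ltbp2 was closest to Thbs4 (0.92), which is one of the 20 genes of the matrix score, Col12a1 (0.90) and Adamts8 (0.90), and Tgfb3 to Fads1 (0.84), Anpep (0.84) and Aebp1 (0.83). Ltbp3 and Ltbp4 shared Thbs3 (0.89 and 0.87), beside Cpt1c (0.93) and Scarf2 (0.91) for Ltbp3 and Ecm1 (0.88) and Grn (0.87) for Ltbp4.

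Tgfb1 was closest to Il2rg (r = 0.95), Cfl1 (0.91) and Il3ra (0.89). Of the receptors, Tgfbr1 was closest to Secisbp2l (0.94), Eea1 (0.94) and Zfp266 (0.93), Tgfbr2 to Lamc1 (0.95), Adgrl2 (0.93) and Ptgfrn (0.92), and Tgfbr3 to Bmpr2 (0.94), Rb1 (0.94) and Jak2 (0.93). Ltbp1 was closest to Tbl1x (0.97), Pard3b (0.96) and Tns3 (0.95). These values describe 18 libraries that share the coverage gradient and carry no test.

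The other genes of the pathway were read from 5 lists, and no gene in them passed the adjusted threshold for genotype. Of 18 activators and carriers of latent TGF-beta, 2 were lower in WWP2Mut/Mut at an unadjusted p below 0.05, against 2.57% of all genes, and 14 had negative log2 fold changes, against 51.9% of all genes. The 2 were Thbs1, which encodes a thrombospondin that activates latent TGF-beta, and Plg, the precursor of plasmin. Thbs1 ranged from 0.32 to 7.32 TPM (median 3.75) in WT and from 0.91 to 2.18 TPM (median 1.47) in mutants, with a log2 fold change of -1.10 ± 0.347 (SE, edgeR, adjusted p = 0.943). Plg, which is made mainly in liver, had medians of 0.52 and 0.09 TPM, in the samples where summed liver markers reached 316 TPM in WT and 57.5 TPM in mutants. The part of liver RNA in this value was not tested.

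Among 11 matrix partners of the LTBPs, Adamtsl3 had a log2 fold change of -0.45 ± 0.200 (unadjusted p = 0.0367 in edgeR) and Eln, which encodes elastin, 0.20 ± 0.184 (unadjusted p = 0.285). The slopes of these partners on the matrix score were positive in all 10 tested, against 52.6% of all genes, and 5 had an unadjusted p below 0.05, against 3.86% of all genes. Of the 5, Eln, Fbn1 and Fn1 are 3 of the score's own genes, each set against the score without itself, so only Adamtsl2 and Emilin1 lie outside it. Among 11 co-receptors and receptor regulators, Bambi, a decoy receptor, had a log2 fold change of -0.32 ± 0.132 (unadjusted p = 0.0282 in edgeR) and Dab2 -0.22 ± 0.150 (unadjusted p = 0.158).

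All 9 SMADs and their inhibitors had negative log2 fold changes, with a median of -0.088, against 51.9% negative and a median of -0.0099 over all genes, and none had an unadjusted p below 0.05 in edgeR. The smallest p belonged to Smad2 (-0.16 ± 0.131, SE), a mediator of the receptor signal, and Smad7 (-0.12 ± 0.169, SE), an inhibitor, and edgeR's adjusted p was 1.0 for both. On the coverage fraction 6 of these 9 fell at an adjusted p below 0.05 (limma), against 31.1% of all genes. Of 12 TGF-beta target genes, Ccn2, a matricellular protein that marks TGF-beta activity, had a log2 fold change of -0.62 ± 0.212 (edgeR, unadjusted p = 0.00852, adjusted p = 0.963), with medians of 60.2 TPM in WT and 26.0 TPM in mutants. Tagln, a smooth muscle protein, went the other way (0.48 ± 0.208, edgeR, unadjusted p = 0.0324, adjusted p = 1.0).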

How the data were processed

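The authors aligned reads with STAR 2.5.2b, quantified Ensembl genes with RSEM 1.2.31 and deposited the expected counts and the TPM of 51435 genes, together with each library's lane, RNA concentration and gene body coverage fraction. For the tests each count was rounded (5.11% were not whole as deposited, at a tolerance of 1e-06). Genotype was tested with edgeR 4.0.16 (TMM, glmQLFit and glmQLFTest, R 4.3.3) over 24804 genes with a total above 1 count, with RNA concentration and lane as covariates. Associations with the matrix score and the coverage fraction were fitted with limma 3.58.1 on log2 CPM over 12913 genes with a mean log2 CPM above 0. P values were adjusted by Benjamini-Hochberg over all genes tested, at a threshold of 0.05. Ratios used 2-sided exact permutation over 48620 regroupings, and correlations 100000 permutations (scipy 1.17.1). DESeq2 1.42.0, other filters, covariates, units and left-out mice were alternatives. Mice are separate animals.

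The 10 genes, the gene lists and the tests were chosen with earlier results of these data known. Named genes were all members, Wwp2, in each pathway list the 2 genes with the smallest unadjusted genotype p, and for each member the 3 genes with the highest r, leaving out members and unnamed gene models; a gene that this rule names is not reported here. The fits were tested on simulated data of 14923 genes with 200 changed between genotypes or with a score. False calls made up 3.13% of calls in edgeR and 7.87% in limma. DESeq2 gave 12.8%, above the limit of 12% first set for all 3 tools, and its limit was raised to 15% after that was seen, so it serves as an alternative only.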

Additional observations from a re-analysis of the deposited data

Results flagged for a closer look

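In WWP2Mut/Mut, mouse 52-1 had the highest Wwp2 level, 3.00 TPM, while the next mutant was at 1.90 TPM. The same mouse had the highest log2 ratio of Tgfbr1 to Tgfbr2 among the mutants, -1.02, and the next was at -1.50. Both were singled out because the gap to the nearest mouse was a large part of the range of the 9 (0.608 and 0.526, above the 95% critical value of 0.493), in 32 groups of 9 values examined. Chance singles out about 1 in 20 groups.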

How the results depend on the processing

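Tgfb2 and Ltbp2 were lower in WWP2Mut/Mut in all 15 alternatives that did not leave out single mice, with log2 fold changes of -0.53 to -0.32 and -0.76 to -0.22 (adjusted p 0.414 to 1.0 and 0.656 to 1.0), and no member passed the adjusted threshold for genotype in any of them. On the 3 TPM scales 1 member, Tgfb2, had an unadjusted p below 0.05 (3.54% to 4.79% of all genes did) and Ltbp2 lost it, with coverage or the liver markers added 3 had one, and without the 5 mice with atrial transcripts, a choice made after seeing the data, 0 members had one and 0 genes passed the adjusted threshold in edgeR (510 had an unadjusted p below 0.05). Small differences changed sign. With coverage as a covariate Ltbp1 was 0.037, Tgfb1 -0.089, Tgfbr3 0.043 and Tgfbr2 0.046. With lane alone Ltbp1 was 0.024, Tgfbr3 0.12 and Tgfbr2 0.080, and with no covariates 0.023, 0.13 and 0.075. With the matrix score added Ltbp1 was 0.0024 and Tgfbr2 0.020, and without the atrial mice Ltbp1 was 0.019, Tgfb3 0.031 and Ltbp3 0.068. Tgfb1 was -0.18 with log2(TPM + 0.1), -0.17 with log2(TPM + 1) and -0.18 after rescaling TPM to a common sum per library. The median over all genes on these scales was -0.11, -0.038 and -0.047.

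The log2 ratio of Tgfb2 to Tgfb1 had an unadjusted p below 0.05 in the exact permutation test with expected counts (-0.40) and without the 5 mice with most liver transcripts (-0.61), also a choice made after seeing the data, and that of Tgfb2 to Tgfb3 with expected counts (-0.29), without the atrial mice (-0.29) and without the liver mice (-0.43). Adjusted over the 5 ratios, those with expected counts had p = 0.0413 (exact permutation test) and the others 0.119 to 0.186.

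For the matrix score the number of genes past the adjusted threshold was 1 with the fibroblast score, 43 with coverage added, 21 with genotype alone, 79 with log2(TPM + 1), 5 without the filter and 0 without the atrial mice or without the liver mice (limma, 293 and 833 at an unadjusted p below 0.05). Members with an unadjusted p below 0.05 numbered 8 with coverage added and 7 with log2(TPM + 1), against 13.3% and 28.2% of all genes, and all of these slopes were positive. The slope of Tgfbr3 was -0.0046 with the fibroblast score, -0.097 with coverage added and -0.18 without the atrial mice. For the coverage fraction, with genotype alone Ltbp2 was -0.12 and Tgfb2 -0.0039, and with log2(TPM + 1) Ltbp2 was -0.060, Tgfb3 -0.090 and Tgfb2 -0.14. The causes of these changes were not tested.

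Leaving out each mouse in turn gave log2 fold changes between genotypes of -0.48 to -0.36 for Tgfb2, -0.75 to -0.43 for Ltbp2, -0.13 to 0.028 for Ltbp1, -0.22 to 0.0015 for Ltbp3, -0.062 to 0.093 for Tgfb1, -0.11 to 0.030 for Tgfbr3, -0.25 to -0.062 for Tgfbr1, -0.15 to -0.016 for Tgfbr2, -0.14 to -0.054 for Tgfb3 and -0.28 to -0.13 for Ltbp4, with 1 to 2 genes past the adjusted threshold and 1 to 2 members with an unadjusted p below 0.05, against 2.96% to 4.61% of all genes. The log2 ratio differences were -0.45 to -0.28 for Tgfb2 to Tgfb1 (unadjusted p below 0.05 without mutant mouse 22-3 or 33-1), -0.34 to -0.22 for Tgfb2 to Tgfb3 (unadjusted p below 0.05 without WT mouse 16-1, 39-1 or 45-1 or mutant mouse 22-3, 62-1 or 8-2), -0.23 to -0.075 for Tgfbr1 to Tgfbr2, -0.15 to -0.047 for Tgfb3 to Tgfb1 and -0.00058 to 0.16 for Tgfbr3 to Tgfbr2. For the matrix score, 0 to 17 genes passed (0 without WT mouse 16-1, 45-3 or 67-1, limma, 714 to 718 at an unadjusted p below 0.05), 2 to 5 members had an unadjusted p below 0.05 (5 without mutant mouse 33-1, where 5.84% of all genes did, against 3.34% to 5.84% over the 18 fits), and the slope of Tgfbr3 was -0.18 to 0.17. The coverage slope of Ltbp2 was -0.059 to 0.15.

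No paired analysis was possible because the mouse numbers of the 2 genotypes are all different. Depth limits Tgfb2 and Ltbp2 most, with as few as 148 and 162 counts in a library. Gene-level values do not separate transcripts, and the exact permutation test of 9 against 9 mice cannot go below p = 4.11e-05.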
